A study of Mus musculus with 8 samples.

Results

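The gasdermins are the 9 mouse genes Gsdma, Gsdma2, Gsdma3, Gsdmc, Gsdmc2, Gsdmc3, Gsdmc4, Gsdmd and Gsdme, described here in hindstomach organoids with and without YAP5SA, an activated form of YAP. They were chosen by gene symbol from a table of 56691 rows in which the difference between Ctrl and YAP5SA was already known, so the differences of the members themselves are given as a description, without a p-value. All 9 symbols were in the table, 6 had at least 1 count, and 3 (Gsdma2, Gsdmd and Gsdme) passed the filter on low counts that the test across all genes requires.

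RNA was sequenced from 3-dimensional cultures of epithelium from the glandular part of the mouse stomach, isolated at embryonic day 18.5 and kept 5 days in growth medium and then 7 days in differentiation medium. The 4 Ctrl cultures carried Shh-Cre, a Cre recombinase driven from Shh, a gene of endodermal epithelium. The 4 YAP5SA cultures had the genotype Shh-Cre;YAP5SA, in which Cre is combined with a form of the Hippo pathway coactivator YAP that escapes its inhibitory phosphorylation. Both groups thus carry Shh-Cre, and nothing in the labels ties a culture to its own embryo, litter or preparation, so the p-values cover no more than the spread among these libraries, which may be technical.

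Gasdermins are cytosolic proteins with an amino-terminal part that can form pores in membranes and a carboxy-terminal part that holds it inactive. Cleavage between these parts by caspases or other proteases frees the pore-forming fragment, which lets small proteins such as mature interleukin-1 and interleukin-18 leave the cell and can end in pyroptosis, a lytic form of cell death. Gsdmd is the widely expressed substrate of the inflammatory caspases, Gsdme is known for turning apoptosis into lytic death, Gsdma2 is known from the glandular stomach, Gsdma3 from skin, and the Gsdmc genes from intestinal epithelium.

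The Gsdma and Gsdmc genes lie in clusters of near copies, so the reads that separate them decide which gene is counted. The first 90 coding bases of the Gsdma cluster on chromosome 11 are shown 5′ to 3′ along the coding strand, from GENCODE M21 transcripts (GRCm38), with capitals for bases that differ from Gsdma2, the only member of this cluster counted at more than a trace.
Gsdma2: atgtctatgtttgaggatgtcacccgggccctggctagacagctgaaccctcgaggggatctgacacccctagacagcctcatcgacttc
Gsdma: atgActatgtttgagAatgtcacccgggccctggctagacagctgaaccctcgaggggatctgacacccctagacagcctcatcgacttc
Gsdma3: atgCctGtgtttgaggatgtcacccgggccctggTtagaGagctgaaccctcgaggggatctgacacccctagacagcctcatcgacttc
Gsdma differed from Gsdma2 at 2 of these 90 bases and Gsdma3 at 4. Over the whole coding sequence the 3 genes were 89.0% to 90.4% identical, and no window of 150 bases, the read length, in the longest complete coding transcript of any of them was found in a transcript of another gene.

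The Gsdmc cluster on chromosome 15 is closer still, as the starts of the 3 most similar genes show, with capitals for bases that differ from Gsdmc2.
Gsdmc2: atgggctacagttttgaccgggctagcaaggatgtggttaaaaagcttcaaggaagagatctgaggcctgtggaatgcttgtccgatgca
Gsdmc3: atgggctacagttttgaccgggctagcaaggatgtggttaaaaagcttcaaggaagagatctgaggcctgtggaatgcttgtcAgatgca
Gsdmc4: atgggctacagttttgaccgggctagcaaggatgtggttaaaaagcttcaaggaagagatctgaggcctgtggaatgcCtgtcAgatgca
Gsdmc3 differed at 1 base and Gsdmc4 at 2, and over the coding sequence Gsdmc2 and Gsdmc3 were 97.1% identical. Windows of 150 bases shared with another gene's transcript made up 16.6% of Gsdmc2, 19.3% of Gsdmc3, 8.83% of Gsdmc4 and 3.15% of Gsdmc. Counts within this cluster are therefore uncertain as to gene, while Gsdmd, on chromosome 15, and Gsdme, on chromosome 6, shared no such window with any other gene. Between clusters, and with Gsdmd or Gsdme, coding sequences were 49.8% to 56.3% identical.

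Libraries held 17387372 to 25841256 counts. Of 13812 genes tested across the whole table with edgeR, 64.5% were called, meaning an adjusted p under 0.05, with 33.1% higher and 31.3% lower in YAP5SA (4577 and 4330 genes, or 5742 and 3201 when libraries were scaled by their size alone, which moved the median log2 fold change of all genes from 0.02 to 0.19). The groups did not overlap for 58.7% of the genes tested. As a check of the labels, Yap1 rose by 0.25 on the log2 scale (SE 0.08, edgeR adjusted p = 0.0111), and whether reads of the transgene fall in this row was not tested. Shh, whose locus drives Cre, fell by 3.26 (SE 0.12) on the log2 scale. Sex-linked RNA separated the groups completely. Xist had 8436 to 12237 counts in Ctrl libraries and 0 to 8 in YAP5SA, and the Y-linked Ddx3y had 0 in Ctrl and 2291 to 2686 in YAP5SA. Genotype and sex therefore cannot be told apart in any difference between the groups. Of the epithelial markers Epcam, Cdh1, Krt8, Krt18 and Krt19, all were abundant in both groups, with sums of 15488 to 16988 CPM in Ctrl and 9150 to 10829 CPM in YAP5SA. Mesenchymal markers reached a sum of 0.415 CPM in Ctrl and 1.65 CPM in YAP5SA at most, with Col1a2 and Lum at 0, and endothelial markers 2.13 and 1.28 CPM.

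Gsdma2, the gasdermin of the glandular stomach, was abundant in every Ctrl culture and nearly missing from every YAP5SA culture. In order of replicate number, the Ctrl libraries had 1708, 1459, 2924 and 1139 counts and the YAP5SA libraries 26, 19, 42 and 27. In CPM, the count relative to the library's total after scaling by the TMM method, the Ctrl libraries were at 96.4, 86.4, 122 and 63.6 and the YAP5SA libraries at 1.18, 0.989, 2.24 and 1.23. The groups were far apart: the lowest Ctrl library was above the highest YAP5SA library many times over, and the spread within each group was small beside the gap. The Ctrl mean was 92.1 ± 24.2 CPM against 1.41 ± 0.562 CPM (SD, n = 4 in each group). The log2 fold change was -6.04 (SE 0.24), 65.8-fold lower in YAP5SA by the fit and rank 14 from the lowest of the 13812 genes tested.

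**Figure D1:**
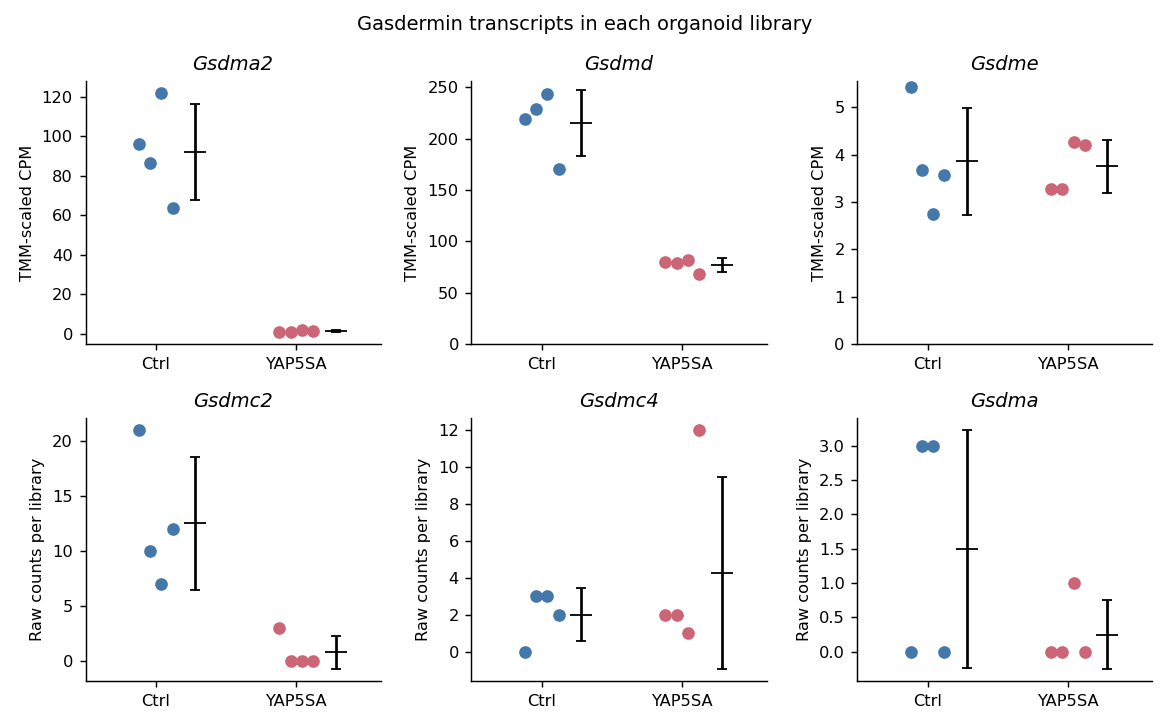
Each point is 1 library, with TMM-scaled CPM on the y axis for Gsdma2, Gsdmd and Gsdme and raw counts for Gsdmc2, Gsdmc4 and Gsdma; black marks are means with SD over 4 libraries. Ctrl and YAP5SA do not overlap for Gsdma2, Gsdmd and Gsdmc2, and they overlap for the other 3 genes. Over all genes tested, the groups do not overlap for 58.7%.

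The near copies of Gsdma2 did not share its level. Gsdma, known from squamous epithelia, had 0, 3, 3 and 0 counts in the Ctrl libraries and 0, 0, 1 and 0 in the YAP5SA libraries, too few to compare (6 against 1 count, ratio 6.43 of Ctrl to YAP5SA, exact 95% counting interval 0.780 to 296). Gsdma3, the skin gene of the cluster, had 0 counts in all 8 libraries, where 3 counts, taken as the most that 0 allows, correspond to 0.116 to 0.173 CPM per library. Such limits and intervals hold for counting error alone, and the reads have no molecular identifiers. With the reads of the 3 genes summed to 1 row the log2 fold change was -6.03 (SE 0.25), and Gsdma2 held all but 7 of the cluster's counts.

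Gsdmd, the executor of inflammasome-driven pyroptosis, was the most counted gasdermin and was lower in YAP5SA by a much smaller factor. Its counts were 3876, 3857, 5846 and 3046 in Ctrl and 1757, 1510, 1544 and 1487 in YAP5SA. On the CPM scale the Ctrl libraries were at 219, 228, 244 and 170 and the YAP5SA libraries at 79.8, 78.6, 82.3 and 67.8. The groups did not overlap, and replicate 4 was the lowest library of each. The Ctrl mean was 215 ± 31.8 CPM against 77.1 ± 6.38 CPM (SD, n = 4 in each group), with a log2 fold change of -1.48 (SE 0.11), or 2.79-fold lower in YAP5SA. Gsdmd thus stayed well above the trace level to which Gsdma2 was reduced.

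Gsdme, the gasdermin linked to apoptosis, was low and similar in both groups. It had 96, 62, 66 and 64 counts in Ctrl and 72, 63, 80 and 92 in YAP5SA, or 5.42, 3.67, 2.75 and 3.57 CPM against 3.27, 3.28, 4.26 and 4.20 CPM. The highest and the lowest of the 8 libraries were both Ctrl. Means were 3.85 ± 1.12 and 3.75 ± 0.553 CPM (SD, n = 4 each), and the log2 fold change of -0.03 (SE 0.23) was smaller than its error. Its direction flips with scaling by library size alone (0.14) and without Ctrl replicate 1 (0.15), the library with the highest level, as well as without YAP5SA replicate 1 (0.03) or 2 (0.03). Pals2, on the opposite strand, overlaps Gsdme in introns only, and the strand setting of the counting is not given in the sources used here.

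Of the Gsdmc genes, only Gsdmc2 showed a difference between the groups beyond a few counts. Gsdmc2 had 21, 10, 7 and 12 counts in Ctrl and 3, 0, 0 and 0 in YAP5SA, so every Ctrl library lay above every YAP5SA library. Summed, 50 against 3 counts give a ratio of 17.9 of Ctrl to YAP5SA (exact 95% counting interval 5.77 to 89.5). Gsdmc4 went the other way in sum, with 0, 3, 3 and 2 counts in Ctrl and 2, 2, 1 and 12 in YAP5SA. YAP5SA replicate 4 alone held 12 of these 17 counts, and the ratio of 0.504 had an exact 95% counting interval of 0.188 to 1.23. Gsdmc and Gsdmc3 had 0 counts in every library. With all 4 rows summed the cluster had 21, 13, 10 and 14 counts in Ctrl and 5, 2, 1 and 12 in YAP5SA, so the groups overlapped through YAP5SA replicate 4. The log2 fold change of this sum was -1.66 (SE 0.56), and -2.50 (SE 0.60) without YAP5SA replicate 4. Among neighbouring gasdermin pseudogenes, Gsdmcl1 and Gsdmcl-ps had 0 counts and Gsdmcl2 had 1.

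Of the 3 members tested, 2 were called lower (Gsdma2 and Gsdmd), against 31.3% of all genes, and 1 was not called. Since the members were chosen with this contrast in view, nothing is read from that share.

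Together the gasdermin genes summed to 312 ± 54.3 CPM in Ctrl against 82.5 ± 6.34 CPM (SD, n = 4 in each group), and their make-up differed. Gsdmd supplied 69.3% ± 2.69 of the gasdermin counts of a Ctrl library and 93.4% ± 1.39 of those of a YAP5SA library. Gsdma2 supplied 29.2% ± 2.95 and 1.69% ± 0.583, and Gsdme 1.27% ± 0.414 and 4.58% ± 0.850. The larger share of Gsdme came with a similar level and a smaller total. Gsdmd counts were 2.0 to 2.67 times those of Gsdma2 in Ctrl libraries and 36.8 to 79.5 times in YAP5SA libraries, with no overlap.

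**Figure D2:**
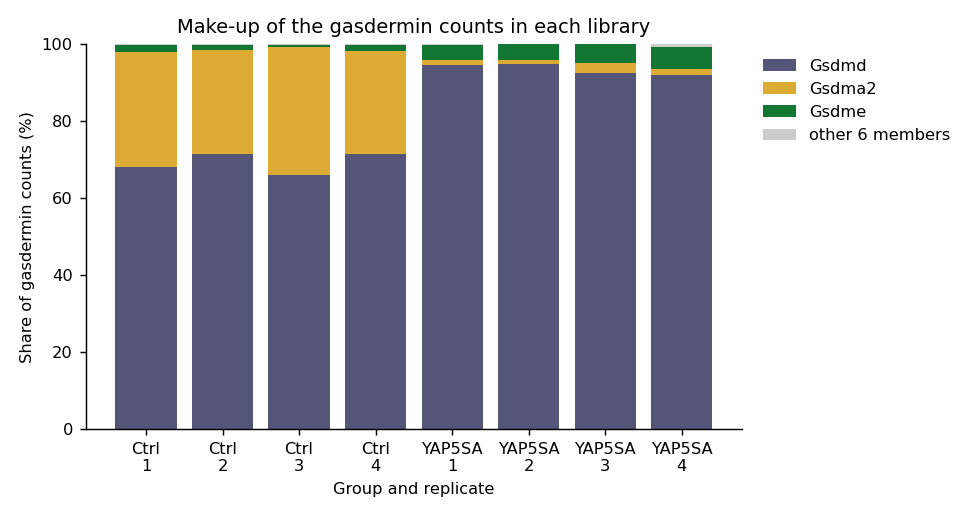
Stacked bars give the percentage of all gasdermin counts that each gene supplies in each of the 8 libraries. Gsdma2 makes up 26.7% to 33.0% in Ctrl and 1.19% to 2.52% in YAP5SA, and Gsdmd 66.1% to 71.5% in Ctrl and 91.9% to 94.7% in YAP5SA.

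Levels of different genes were compared per length of transcript. In Ctrl the mean level was 120 ± 17.7 CPM per kb for Gsdmd, 55.0 ± 14.4 for Gsdma2 and 1.54 ± 0.448 for Gsdme, and each step in this order was larger than the spread. In YAP5SA it was 43.0 ± 3.56 CPM per kb for Gsdmd, 1.5 ± 0.221 for Gsdme and 0.843 ± 0.336 for Gsdma2. The order of the last 2 depends on the length used: per kb of all annotated exons, Gsdme was at 0.294 and Gsdma2 at 0.457 in YAP5SA, with 12742 annotated exon bases for Gsdme but 2502 in its coding transcript. Gsdmc2, Gsdmc4 and Gsdma were at most 0.317 CPM per kb of transcript in either group.

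Markers of surface mucous (pit) cells, the secretory cells that line the stomach surface, were lower alongside Gsdma2 and Gsdmd. All 11 of the listed markers in the table were tested and all were called lower, against 31.3% of all genes. Their median log2 fold change was -3.38, and they summed to 43360 to 68838 CPM in Ctrl libraries and 4331 to 6322 CPM in YAP5SA. Among them Gkn2 was at -3.74, Gkn1 at -3.64 and Tff1 at -3.17. This list was chosen with earlier results of these data known, and no other cell type of the glandular stomach was listed beside it. The share called lower is therefore a description only. In bulk RNA, fewer cells of a type and less RNA per cell cannot be told apart, and the part of pit cell number in the gasdermin values was not tested.

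Other cell types that express gasdermins were looked for as well. Immune cell markers summed to 8.69 to 18.2 CPM in Ctrl and 68.1 to 74.5 CPM in YAP5SA. Nearly all of the YAP5SA sum was Cd68 (mean 38.2 CPM) and Csf1r (32.0 CPM). The 3 of 10 tested (Cd68, Csf1r and Lyz2) were called higher, against 33.1% of all genes. Among those not tested, the pan-leukocyte gene Ptprc had 15 counts in Ctrl and 3 in YAP5SA, while Itgam had 5 and 53. Tyrobp and Adgre1 had 0 in every library. Intestinal markers, beside which Gsdmc2 is of interest, summed to 729 to 1032 CPM in Ctrl and 49.2 to 56.5 CPM in YAP5SA. Nearly all of the Ctrl sum was Lgals4 (mean 774 CPM) and Vil1 (116 CPM). Every other listed intestinal gene had a Ctrl mean of at most 1.16 CPM, that of Fabp2. Of 5 tested, 4 were called lower (Lgals4, Vil1, Fabp2 and Fabp1), or 80.0% against 31.3% of all genes, and Muc2 higher. The intestinal regulator Cdx2 had 6 and 3 counts. Squamous markers summed to 244 to 331 and 337 to 469 CPM, with 3 of 9 tested called higher, 2 lower and 4 not called. Their 33.3% higher was near the 33.1% of all genes, and 22.2% were lower against 31.3%. On the log2 scale Krt4 was at 3.04, Sprr3 at 6.59 and Ivl at -3.09, and Trp63 had 1 and 0 counts. The part of these cell types in the gasdermin values was not tested.

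Genes of proteases that cut gasdermins, listed with the related caspase genes Casp9 and Casp12, moved in both directions. Of 10 reported, 5 were tested and all 5 were called, 2 higher and 3 lower, with a median log2 fold change of -0.42. Over all genes 64.5% were called, 33.1% higher and 31.3% lower, with a median of 0.02, and the shares called in this and the following lists are read against these. Caspase-1, the classical activator of Gsdmd, was nearly missing: Casp1 had 0 counts in Ctrl and 3 in YAP5SA. The other inflammatory caspases rose from low levels. Casp4, which encodes the lipopolysaccharide sensor caspase-11, went from 0.694 ± 0.314 to 3.00 ± 0.472 CPM (2.06, SE 0.31, edgeR adjusted p = 5.28e-05), and its neighbour in the family Casp12 from 0.182 ± 0.132 to 4.56 ± 1.09 CPM (4.68, SE 0.40, edgeR adjusted p = 2.13e-07). The 3 apoptotic caspase genes Casp6, Casp8 and Casp9 fell. The log2 fold change was -0.98 (SE 0.12) for Casp6 and -0.66 (SE 0.13) for Casp9. Casp8, which can cut Gsdmd and Gsdmc, fell from 80.3 ± 5.19 to 60.0 ± 3.83 CPM (-0.42, SE 0.08, edgeR adjusted p = 0.000285). The leukocyte proteases Elane, Ctsg, Gzma and Gzmb had 0 counts in every library.

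Sensors and adaptors of inflammasomes, the complexes that activate inflammatory caspases, were split. Of 20 listed genes 13 were tested, of which 4 rose, 6 fell and 3 were not called, and the median was -0.37. The 30.8% higher was close to the 33.1% of all genes, and 46.2% were lower against 31.3%. Naip1 was among the 6 lower (-1.24, SE 0.45), with groups that overlapped. Its call was lost without Ctrl replicate 2 (-0.85) or 3 (-1.25) and without YAP5SA replicate 1 (-1.21), 3 (-1.08) or 4 (-1.22). Scaling by library size alone also ended the call (-1.07). Nlrc4, which assembles the inflammasome for bacterial flagellin and secretion system proteins, fell from 44.1 ± 5.44 to 4.58 ± 1.09 CPM (-3.27, SE 0.15, edgeR adjusted p = 3.72e-10). Its receptor partner Naip2 fell from 99.3 ± 12.9 to 29.6 ± 3.95 CPM (-1.75, SE 0.11), while the near copies Naip5 and Naip6 rose by 0.88 (SE 0.14) and 0.67 (SE 0.10). Reads of the Naip genes are uncertain where these copies share sequence. Pycard, the adaptor ASC, fell from 5.96 ± 1.20 to 0.898 ± 0.398 CPM (-2.74, SE 0.29, edgeR adjusted p = 1.74e-06). The DNA sensor gene Aim2 rose from 91.7 ± 6.78 to 145 ± 13.0 CPM (0.66, SE 0.08), and Nlrp10 rose by 1.17 (SE 0.20). Nlrp3, the sensor of many danger signals, had 0 counts in Ctrl and 6 in YAP5SA, and Nlrp6 had 7 and 2. Nek7 and Txnip, both linked to Nlrp3, were not called, at 0.02 (SE 0.08) and -0.05 (SE 0.13).

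Interleukin-1 family cytokine genes, listed with their receptors and inhibitors and with Hmgb1, were mostly lower. Only the cytokines and Hmgb1 are cargo that leaves cells through gasdermin pores or on lysis, and the counts cover the whole list. Of 9 tested out of 14 listed, 6 were lower, 2 higher and 1 not called, with a median of -1.48. That is 88.9% called against 64.5% of all genes, and 66.7% lower against 31.3%. Il18, the interleukin-18 precursor of epithelial cells, fell from 323 ± 64.4 to 29.8 ± 4.66 CPM (-3.43, SE 0.15, edgeR adjusted p = 1.89e-10). The alarmin gene Il33 fell from 413 ± 73.1 to 44.0 ± 9.17 CPM (-3.23, SE 0.15) and Il1a from 32.6 ± 4.65 to 7.81 ± 1.72 CPM (-2.06, SE 0.16). Il1b had 3 counts in Ctrl and 1 in YAP5SA. On the receiving side, the log2 fold change was -2.35 (SE 0.13) for the receptor gene Il1r1, -1.48 (SE 0.15) for the receptor antagonist gene Il1rn and -1.16 (SE 0.14) for the inhibitory receptor gene Sigirr. The nuclear alarmin gene Hmgb1 rose by 0.37 (SE 0.07). The other higher gene, Il1rap (0.86, SE 0.31), lost its call without Ctrl replicate 2 (0.64) or 3 (0.71) and without YAP5SA replicate 1 (0.83), 2 (0.85) or 4 (0.77).

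**Figure D3:**
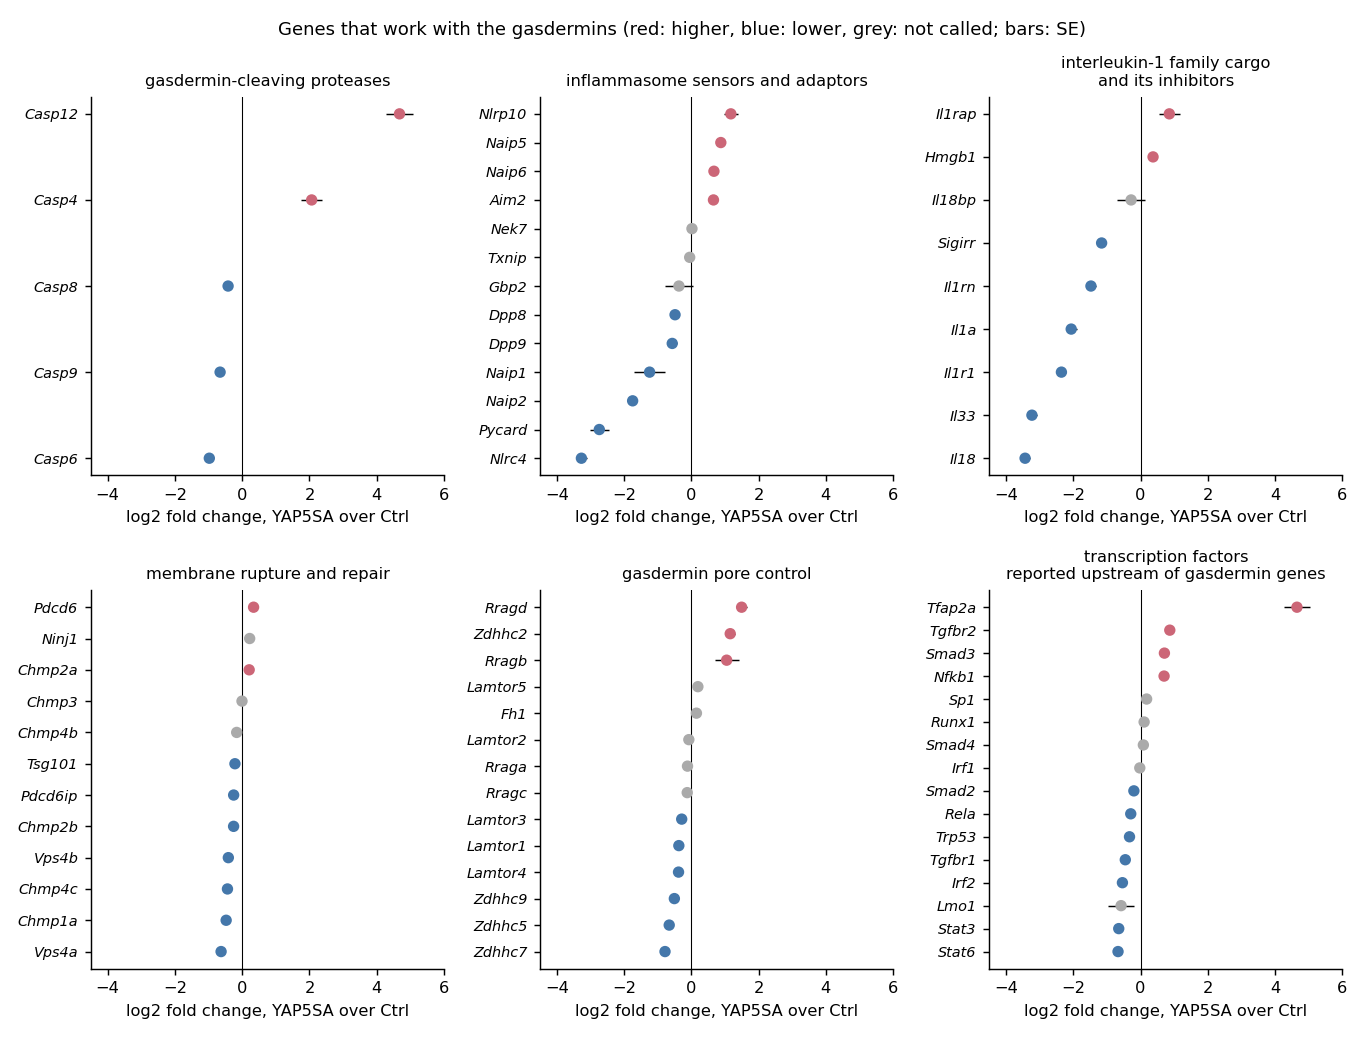
Each panel gives the log2 fold change of YAP5SA over Ctrl for the tested genes of 1 list, with SE bars; red points are higher, blue lower and grey not called at an edgeR adjusted p of 0.05. The interleukin-1 panel lies mostly left of 0 with Il18 at -3.43, and in the protease panel Casp4 and Casp12 stand alone on the right.

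Genes of plasma membrane rupture and repair changed little in size. Ninj1, which breaks the membrane open after pore formation, had means of 36.8 ± 4.54 CPM (Ctrl) and 42.9 ± 4.21 CPM (YAP5SA) (0.22, SE 0.10, edgeR adjusted p = 0.0771), and was called higher without Ctrl replicate 2 (0.27) and with scaling by library size alone (0.40). Of the 12 tested genes of this list 7 were lower, 2 higher and 3 not called, with a median of -0.24 (75.0% called against 64.5% of all genes), but 4 were lower and 4 higher when libraries were scaled by size alone. The rest are ESCRT genes, which mend membrane pores, and their partners. Among them Vps4a was at -0.63 (SE 0.11), Chmp1a at -0.48 (SE 0.07), Chmp4c at -0.44 (SE 0.09) and Vps4b at -0.41 (SE 0.08) on the log2 scale, all called lower. Pdcd6 rose by 0.34 (SE 0.08). Chmp2a, the other higher gene (0.21, SE 0.08), lost its call with RLE scaling, with no filter on low counts and in DESeq2, and also without Ctrl replicate 1 (0.12), 3 (0.22) or 4 (0.18) and without YAP5SA replicate 1 (0.22), 2 (0.17) or 4 (0.19).

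Genes linked to the control of gasdermin pores were called in 9 of 14 cases, with 3 higher, 6 lower and a median of -0.12. They are palmitoyltransferases, the Ragulator-Rag complex and the enzyme gene Fh1, which was not called (0.15, SE 0.10). The 64.3% called is the background share, since 64.5% of all genes were called. With scaling by library size alone 5 were higher and 3 lower. The palmitoyltransferase genes Zdhhc7, Zdhhc5 and Zdhhc9 fell, with log2 fold changes of -0.78 (SE 0.09), -0.66 (SE 0.08) and -0.51 (SE 0.08), while Zdhhc2 rose by 1.16 (SE 0.14). The Rag GTPase gene Rragd rose from 9.55 ± 1.43 to 26.9 ± 4.86 CPM (1.49, SE 0.15).

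Transcription regulators that have been linked to gasdermin genes, listed with the receptor genes Tgfbr1 and Tgfbr2, also went both ways. Of the 16 tested 4 were higher, 7 lower and 5 not called, with the median at -0.11. Scaling by library size alone gave 7 higher and 4 lower. The 68.8% called was near the 64.5% of all genes. Irf2, an activator of Gsdmd, fell from 40.9 ± 6.16 to 28.1 ± 0.559 CPM (-0.54, SE 0.11, edgeR adjusted p = 0.000485). Stat6, through which interleukin-4 and interleukin-13 act on the Gsdmc genes, fell from 127 ± 14.9 to 79.6 ± 3.65 CPM (-0.67, SE 0.09). Lmo1, linked with TGF-beta to a gasdermin of pit cells, was low at 1.21 ± 0.413 and 0.808 ± 0.366 CPM and was not called (-0.58, SE 0.39). The TGF-beta receptor gene Tgfbr2 rose by 0.87 (SE 0.07), its signal carrier Smad3 by 0.71 (SE 0.07) and Nfkb1 by 0.70 (SE 0.08). Of their partner genes on the list, Tgfbr1 was lower at -0.45 (SE 0.10), Smad4 was not called at 0.08 (SE 0.07), and Smad2 at -0.20 (SE 0.07) and Rela at -0.29 (SE 0.10) were lower. Smad2 lost its call without Ctrl replicate 4 (-0.17) or YAP5SA replicate 2 (-0.19), with no filter on low counts (-0.20) and with scaling by library size alone (-0.02), and Rela lost its call with scaling by library size alone (-0.12). Tfap2a, a factor of surface ectoderm, rose from 0.123 ± 0.077 to 3.41 ± 0.741 CPM (4.65, SE 0.39).

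Genes next to the gasdermins were compared to see whether a difference extended along the chromosome, taking the nearest 3 protein-coding genes on each side of each locus in RefSeq order. Of these 24 genes, 16 were tested, of which 3 rose, 8 fell and 5 were not called (7 higher with scaling by library size alone), and the median was -0.47. The 68.8% called was near the 64.5% of all genes, and 8 of 16 were lower against 31.3%. Around Gsdma2, at -6.04, the tested neighbours showed no difference of that size: Ormdl3 was at 0.64 (SE 0.09), Psmd3 at 0.08 (SE 0.09) and Med24 at -0.34 (SE 0.12), the last not called without YAP5SA replicate 2 (-0.26) or with scaling by library size alone (-0.16), while Lrrc3c, Zpbp2 and Csf3 had too few counts to test. Around Gsdmd, at -1.48, genes on both sides fell. Naprt, an enzyme gene of NAD synthesis, was at -2.57 (SE 0.22), Rhpn1 at -1.58 (SE 0.20) and Zc3h3 at -0.65 (SE 0.14), while Eef1d, at 0.15 (SE 0.09), was not called except as higher without Ctrl replicate 1 (0.20) and with scaling by library size alone (0.33). Mroh6 and Mafa, closest to Gsdmd on the right and second on the left, were not tested.

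Around the Gsdmc cluster, Asap1 rose by 1.05 (SE 0.08), Cyrib rose by 0.65 (SE 0.09) and Lratd2 fell by 0.98 (SE 0.07) on the log2 scale. Myc was not called, at 0.22 (SE 0.11), but was called higher without Ctrl replicate 4 (0.28) and with scaling by library size alone (0.39). Adcy8 was at -1.27 (SE 0.46), a call that ended without Ctrl replicate 2 or 3 or YAP5SA replicate 1, 2 or 3 (adjusted p 0.0503 to 0.0894). Beside Gsdme, Osbpl3 was at -0.81 (SE 0.11) and the cytochrome c gene Cycs at -0.72 (SE 0.10), both lower, while Pals2 was at 0.15 (SE 0.09) and 4921507P07Rik at -0.60 (SE 0.34), neither called.

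**Figure D4:**
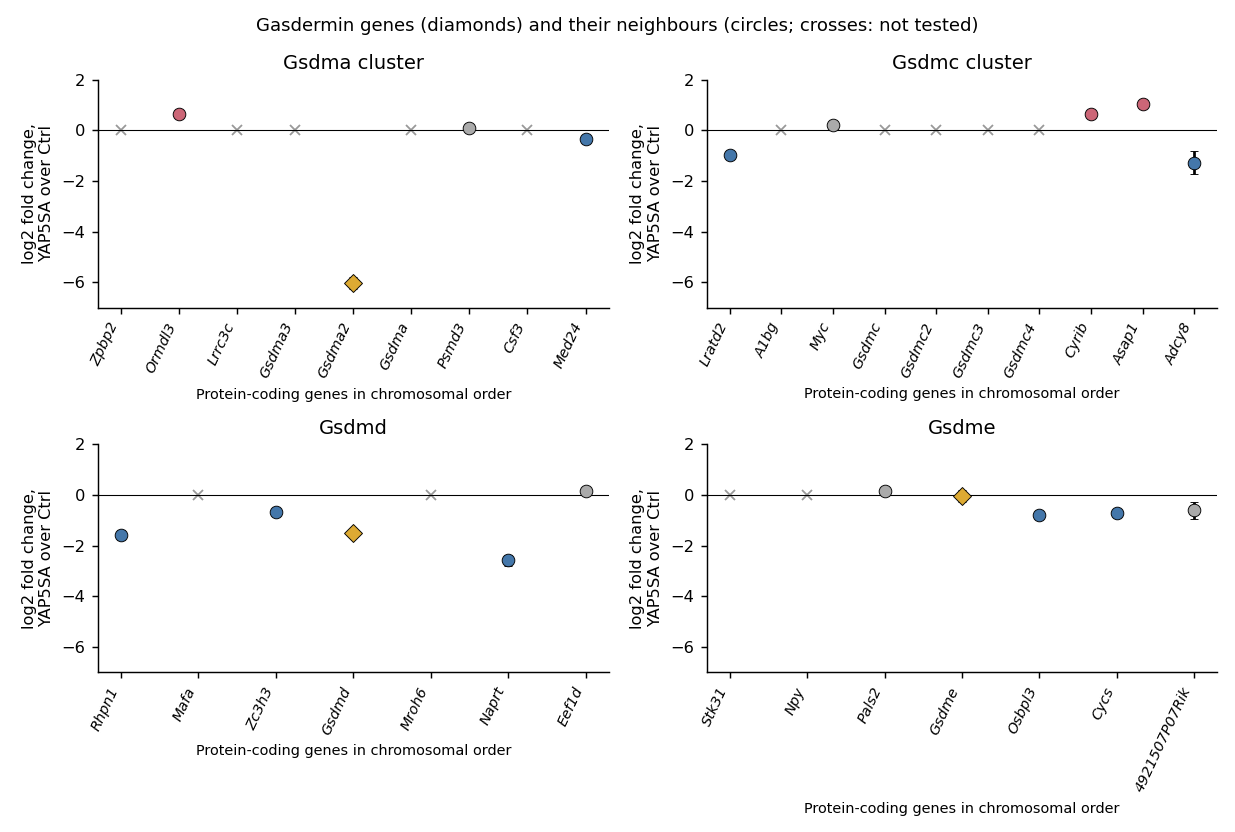
Each panel shows 1 gasdermin locus, with protein-coding genes in chromosomal order on the x axis and the log2 fold change of YAP5SA over Ctrl with its SE on the y axis; diamonds are gasdermins, circles neighbours (red higher, blue lower, grey not called), and crosses at 0 mark genes with no value because they were not tested. Gsdma2 stands at -6.04 between neighbours from -0.34 to 0.64, while Gsdmd at -1.48 lies between Zc3h3 at -0.65 and Naprt at -2.57.

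The genes whose level over the 8 libraries was most like that of Gsdmd, the most counted member, were Ldhd, Syt16, Tmem254, Sh3bgrl2 and Kif5c, with Pearson correlations of log2 CPM of 0.999, 0.998, 0.998, 0.998 and 0.997. The libraries share their group difference, and 1128 of 12034 genes compared had a correlation above 0.95. Their own differences were of unlike size, from -1.16 for Sh3bgrl2 to -3.22 for Kif5c on the log2 scale.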

How the data were processed

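Bulk RNA was sequenced in 8 libraries, 4 Ctrl and 4 YAP5SA, grouped by sample title. The authors deposited un-normalized counts per gene as whole numbers. The tools named, per the submitters' processing notes, are HTSeq 0.6.1, HISAT2 2.0.1 and cutadapt, and the build is mm9. The annotation, the strand setting and how reads with several matches were treated: not given in the sources used here. No coordinates are printed.

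The test of these counts was that of edgeR 4.0.16 in R 4.3.3 (quasi-likelihood F test, two-sided, no covariate), after filterByExpr (minimum count 10, total 15) and TMM scaling. P-values were Benjamini-Hochberg adjusted over the 13812 genes that entered the fit (threshold 0.05). SEs are the log2 fold change over the square root of F. The procedure was tested on simulated data. No replicates of a group agreed within sampling noise (chi-square per degree of freedom 4.69 to 34.9).

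The members, and the lists of genes and markers, were chosen with earlier results of these data known. Named genes were all members, the 4 genes with the smallest p of each list, tested neighbours, the 5 genes most like Gsdmd and the 3 most counted genes of marker lists; other list genes were named after their values were seen. Some genes of the protease and immune lists are not reported here and are left out of those lists' values. Identities and lengths come from GENCODE M21 (GRCm38; Biopython 1.88), neighbours from RefSeq (GRCm38.p6).

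Alternatives were RLE and library size scaling, DESeq2 1.42.0, leaving out the filter, requiring 1 CPM in 4 libraries, summed paralogous rows, a replicate block and leaving out each library. Leaving out each library with paralogous rows summed was added after seeing the data.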

Additional observations from a re-analysis of the deposited data

Results flagged for a closer look

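In a group of 4 libraries, a highest or lowest value was looked at again when its gap to the next library over the group's range was above Dixon's 95% critical value, for the tested gasdermins and the named list and neighbour genes. Of 86 groups examined 3 met this, and chance gives about 1 in 20. None was a gasdermin. Il33 was at 57.7 CPM in YAP5SA replicate 4, above 38.6 to 40.5 CPM in the other YAP5SA libraries and below every Ctrl library. Vps4a was at 59.7 CPM in Ctrl replicate 4, above 45.0 to 46.5 CPM in the other Ctrl libraries. Chmp1a was at 148 CPM in Ctrl replicate 1, below 158 to 161 CPM in the others.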

How the results depend on the processing

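Over all 15 alternatives the log2 fold change was -6.33 to -5.86 for Gsdma2 and -1.60 to -1.30 for Gsdmd, and -0.19 to 0.15 for Gsdme. Gsdmc2 entered the fit in 6 of them, at -6.73 to -3.60. These were the fit with no filter on low counts (-4.01) and those without Ctrl replicate 3 or any 1 YAP5SA replicate. The lowest value was that without YAP5SA replicate 1, the library that holds the 3 YAP5SA counts of Gsdmc2. Whether the replicate numbers pair the libraries cannot be decided from 4 libraries in each group. Deviations from the group means of same-numbered libraries correlated at 0.05 to 0.28, over 0.1 in 1 of 4 pairs. Libraries with unlike numbers correlated at -0.19 to 0.13, and 2 of 4 libraries in each group correlated best with their own number. With a replicate block 9174 genes were called in place of 8907, with Ninj1 (0.23), Myc (0.23) and Sp1 (0.19) added as higher among the listed genes and neighbours and none lost. Library size scaling moved calls towards higher. Membrane rupture and repair went to 4 higher and 4 lower and pore control to 5 and 3. The list of transcription regulators and TGF-beta receptors went to 7 and 4, and neighbours to 7 higher. Higher genes of membrane rupture and repair numbered 1 with RLE scaling, no filter on low counts or DESeq2. When single libraries were left out they numbered 1 to 3, and higher genes of the interleukin-1 list 1 to 2. The cause was not tested. The depth leaves Gsdma, Gsdmc4 and the genes at 0 counts undecided.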

Other observations

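Pjvk, which encodes pejvakin, the remaining relative of the gasdermins, was nearly unread, with 3 counts in Ctrl and 2 in YAP5SA in all.

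RefSeq promoter windows (GRCm38.p6, 250 bases before to 50 after the start) were matched for 3 of the 9 genes, Gsdma3, Gsdmc3 and Gsdme. On either strand they held no GGAATG, a TEAD motif found in 14.7% of 32851 such windows, no AGATAA (a motif of the GATA factors, 11.2%), no TATAAA (the core promoter box, 13.6%), no TGANTCA (AP-1, 7.81%) and no GGGTGG (KLF/SP, 31.5%). This says only that these letters are not in these windows.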
